A study of Arabidopsis thaliana with 6 samples.

Results

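The JAZ genes of Arabidopsis encode the JASMONATE ZIM-DOMAIN repressors of the jasmonate pathway, and 10 of them were examined in root tips of the *an3* mutant and of the wild type. The members were taken by locus identifier from the deposited expression table, in which each had a row of its own among 33201 rows. *JAZ1* (AT1G19180), *JAZ2* (AT1G74950), *JAZ5* (AT1G17380), *JAZ6* (AT1G72450), *JAZ8* (AT1G30135) and *JAZ9* (AT1G70700) lie on chromosome 1. *JAZ7* (AT2G34600) lies on chromosome 2, *JAZ3* (AT3G17860) on chromosome 3, and *JAZ10* (AT5G13220) and *JAZ12* (AT5G20900) on chromosome 5. The rule that lists them uses no measured value of this table, although earlier results of these data were known when the family was chosen.

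To find candidate repressors that act downstream of the co-activator ANGUSTIFOLIA 3 (AN3, also named GIF1) in stem cell divisions of the root, the study compared 3 samples of an *an3* loss-of-function line with 3 samples of the wild type Columbia (Col), called WT in the labels. Root tips of about 5 mm were cut from 5-day-old seedlings that carried no other allele or treatment in the labels, and their RNA was sequenced with 100 bp single-end reads. A single mutant line was used, and such a tip holds differentiating tissue beside the meristem. The table gives 1 FPKM value per genotype (fragments normalised to transcript length and library size), which stands for its 3 samples together.

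Since no value of a single sample was given, the spread between replicates cannot be shown, the depth is unknown, and none of the values below carries an error or a test. *AN3* itself had 21.5 FPKM in Col and 2.55 in *an3*, so that 11.9% of the wild-type level remained. All 9 root tip markers were listed above 0 in both genotypes, among them the ground tissue regulator *SCR*, at 25.1 and 21.2 FPKM, and the endodermal gene *CASP1*, at 681.4 and 891.1 FPKM. Of the 8 markers whose mean reached 1 FPKM, only *PLT1*, at 0.944 and 1.47 FPKM, was past 1.5-fold, beside 6.95% of all rows with such a mean. With 0.1 FPKM added to both values, its log2 ratio was 0.59. That lay under the 95th percentile (0.77) of rows with a mean of 1 to 5 FPKM. The flower gene *AP1* was listed at 0 in both, and *AG* at 0 in Col and 0.0205 FPKM in *an3*. Of 6 green shoot markers, 3 reached a mean of 1 FPKM. All 3 were past 1.5-fold lower in *an3*, beside 3.06% of all rows with such a mean. The list summed to 59.4 FPKM in Col and 21.9 in *an3*. *GL1* and *RBCS2B* were listed at 0 in both, and *RBCS3B* had 0.114 FPKM in Col and 0.140 in *an3*. The part of the green shoot markers in the values below was not tested. In whole tips, fewer cells of a type and less RNA per cell cannot be told apart.

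Jasmonate is a lipid-derived hormone of wounding, defence and root growth. In its absence JAZ proteins bind MYC transcription factors and, through the adaptor NINJA or directly, bring the co-repressor TOPLESS to their target genes. The active form, jasmonoyl-isoleucine, joins the F-box protein COI1 to a JAZ protein, which is then degraded, and the freed MYC factors switch on target genes that include most JAZ genes themselves.

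MYC factors are known to bind the G-box, CACGTG, and this motif was looked for upstream of the members. In the 500 bases before the annotated gene start in RefSeq TAIR10.1, 6 of the 10 members held at least 1 CACGTG, which is a palindrome and reads the same on both strands, against 9.35% of 27443 protein-coding genes. The 7 sites are shown with up to 12 bases on each side, on the strand of the gene and with the motif in capitals, because the G-box is the letters by which MYC factors are known to bind their targets.
JAZ2: attaaattaaaaCACGTGttttaaatgtct
JAZ3, distal: gttaaaatagcgCACGTGcctcgccacgcg
JAZ3, proximal: tgcacgacgatgCACGTGcctttttaaccg
JAZ6: ataacaatacttCACGTGtccttaaacttt
JAZ7: aaaagcattttaCACGTGcgtgaagagaaa
JAZ8: aaaaacattttcCACGTGagag
JAZ9: attcaaaaatttCACGTGttatgaaatgag

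In TAIR10.1 these stretches lie at chr1:28150495-28150524 for *JAZ2* (minus strand), chr3:6119555-6119584 and chr3:6119613-6119642 for *JAZ3* (plus strand), and chr1:27277023-27277052 for *JAZ6* (minus strand). Those of *JAZ7*, *JAZ8* and *JAZ9*, all on the plus strand, lie at chr2:14572984-14573013, chr1:10596330-10596351 and chr1:26654151-26654180. The motif began between 10 bases (*JAZ8*) and 478 bases (*JAZ6*) before the gene start. The related letters CACATG, searched on both strands as CACATG and CATGTG, which do not overlap CACGTG, were found once each before *JAZ1*, *JAZ9* and *JAZ10*, that is in 3 of 10 members against 21.1% of the protein-coding genes. *JAZ5* and *JAZ12* held neither motif in this window. The sources used here do not name the build of the deposited table, and a match of letters is not a measured binding site.

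Levels spanned a far wider range across the family than between the genotypes, although some members lay close to each other. *JAZ12*, *JAZ1* and *JAZ3* together made up 86.0% of the summed FPKM of the family in Col and 85.6% in *an3*. Over the 7 members whose mean of the 2 genotypes reached 1 FPKM, the highest level was 28.0 times the lowest in Col and 28.9 times in *an3*, on a scale that is already divided by transcript length.

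*JAZ12*, whose protein is known to be bound by the ubiquitin ligase KEG, had the highest level in Col, 45.0 FPKM, and 44.1 FPKM in *an3*. With 0.1 FPKM added to both values, the log2 ratio of *an3* over Col was -0.03. *JAZ12* touches neighbours on the other strand in TAIR10.1, by 28 bases with *AIP2* (26.3 FPKM in Col and 31.4 in *an3*) and by 211 bases with the long non-coding RNA gene AT5G03235. It is not stated whether the counting used strand, so reads in these stretches could be assigned to either gene.

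*JAZ1*, which encodes an early described target of COI1, had 34.8 FPKM in Col and 45.3 in *an3*. This difference of 10.5 FPKM was the largest of the family and made *JAZ1* the highest member in *an3*, ahead of *JAZ12*. Its ratio was 1.30, a log2 ratio of 0.38. Of 4842 rows with a mean of 20 to 100 FPKM, the middle 50% had log2 ratios from -0.11 to 0.13. The 95th percentile of these rows was 0.37, so *JAZ1* lay just above it. *JAZ3*, known from the dominant jasmonate-insensitive mutant *jai3*, had 32.3 FPKM in Col and 30.9 in *an3*, a log2 ratio of -0.06 and thus within the middle of those rows.

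**Figure D1:**
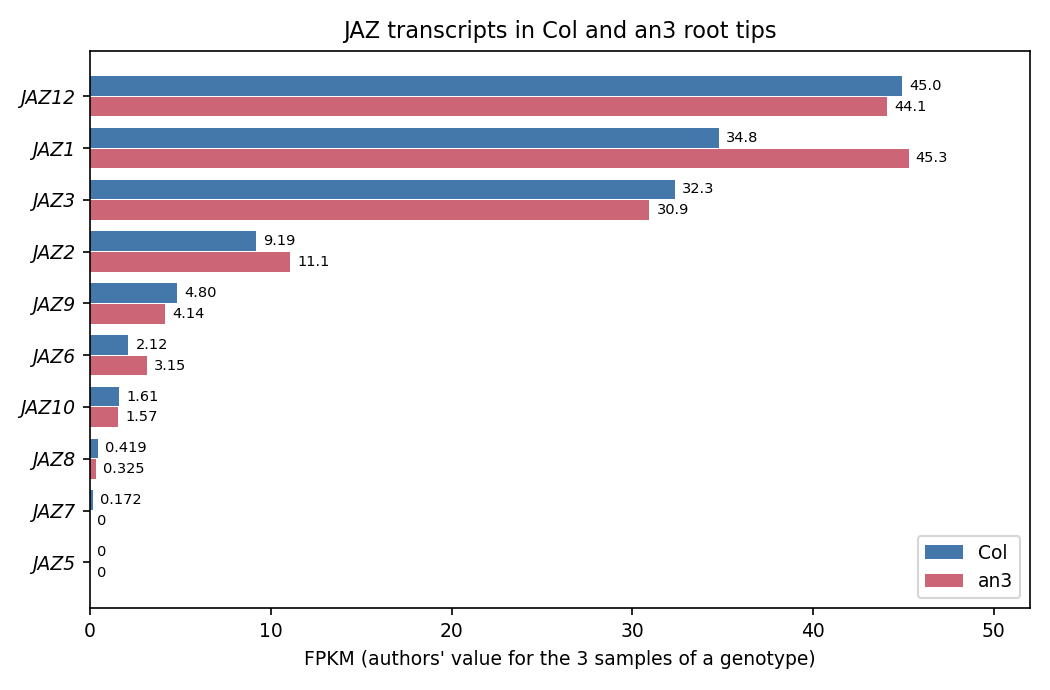
Level of the 10 JAZ genes in FPKM (x axis, from 0) in Col (blue) and *an3* (red), with 1 bar for the authors' value of each genotype and no error bars, since values of single samples were not given. *JAZ12*, *JAZ1* and *JAZ3* stand between 30.9 and 45.3 FPKM, and *JAZ5*, *JAZ7* and *JAZ8* stand under 1 FPKM in both genotypes.

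A middle group of 4 members lay between 1.57 and 11.1 FPKM. *JAZ2*, a close relative of *JAZ1* (their annotated transcripts share a stretch of 20 identical bases), had 9.19 FPKM in Col and 11.1 in *an3*, a log2 ratio of 0.27. *JAZ6* had 2.12 FPKM in Col and 3.15 in *an3*. This was the largest relative difference among the 7 members, a ratio of 1.49 and a log2 ratio of 0.55, but at such levels ratios scatter widely. Of 4632 rows with a mean of 1 to 5 FPKM, the 5th percentile of the log2 ratio was -0.70 and the 95th was 0.77, and *JAZ6* lay inside that range.

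*JAZ9* had 4.80 FPKM in Col and 4.14 in *an3*, a log2 ratio of -0.21. *JAZ10*, a strongly jasmonate-inducible gene known for splice forms that resist degradation, had 1.61 FPKM in Col and 1.57 in *an3*, a log2 ratio of -0.04. The table gives 1 value per gene, so the 7 transcripts annotated for *JAZ10* in TAIR10.1 could not be told apart. An annotated long non-coding RNA gene, AT5G02045, overlaps it by 71 bases on the other strand.

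The remaining 3 members were at or near 0. *JAZ8*, whose protein lacks the usual degron and resists degradation by COI1, had 0.419 FPKM in Col and 0.325 in *an3*. *JAZ7*, its nearest relative, had 0.172 FPKM in Col and was listed at 0 in *an3*. *JAZ5* was listed at 0 in both genotypes. An estimate of 0 can be a failed estimate, no counts stand behind these values, and no ratio was taken from the values of *JAZ5* and *JAZ7*. In Col, 13.6% of the rows above 0 were at or below the level of *JAZ8*, against 84.3% for *JAZ12*.

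The *JAZ5* and *JAZ6* transcripts, like those of *JAZ1* and *JAZ2*, share at most 20 identical bases in a row, and this was the longest shared stretch of the 45 pairs of members. No pair shared a stretch as long as a 100-base read. *JAZ6* was listed above 0 in both genotypes while *JAZ5* was at 0.

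For the family as a whole, 3 of the 7 members that reached a mean of 1 FPKM were higher in *an3* (*JAZ1*, *JAZ2* and *JAZ6*) and 4 were lower (*JAZ3*, *JAZ9*, *JAZ10* and *JAZ12*). None of the 7 differed by 1.5-fold or more, where 6.95% of the 17229 rows with this mean did (3.89% higher and 3.06% lower in *an3*). With 7 genes, a count of 0 lies near that background. The median log2 ratio of the 7 members was -0.03, against -0.0034 over all rows. At a lower limit, a log2 ratio of 0.32 in either direction, *JAZ1* and *JAZ6* were past it and both were higher in *an3*, beside 11.4% of all rows that were higher and 10.2% that were lower at this limit.

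The summed level of the 10 members was 130.4 FPKM in Col and 140.6 in *an3*, a ratio of 1.08. Without *JAZ1* the sums were 95.6 and 95.3 FPKM. The order of the other 6 members over 1 FPKM, from *JAZ12* through *JAZ3*, *JAZ2*, *JAZ9* and *JAZ6* to *JAZ10*, was the same in both genotypes, although without replicates it is not known which neighbours in this order differ beyond their spread.

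**Figure D2:**
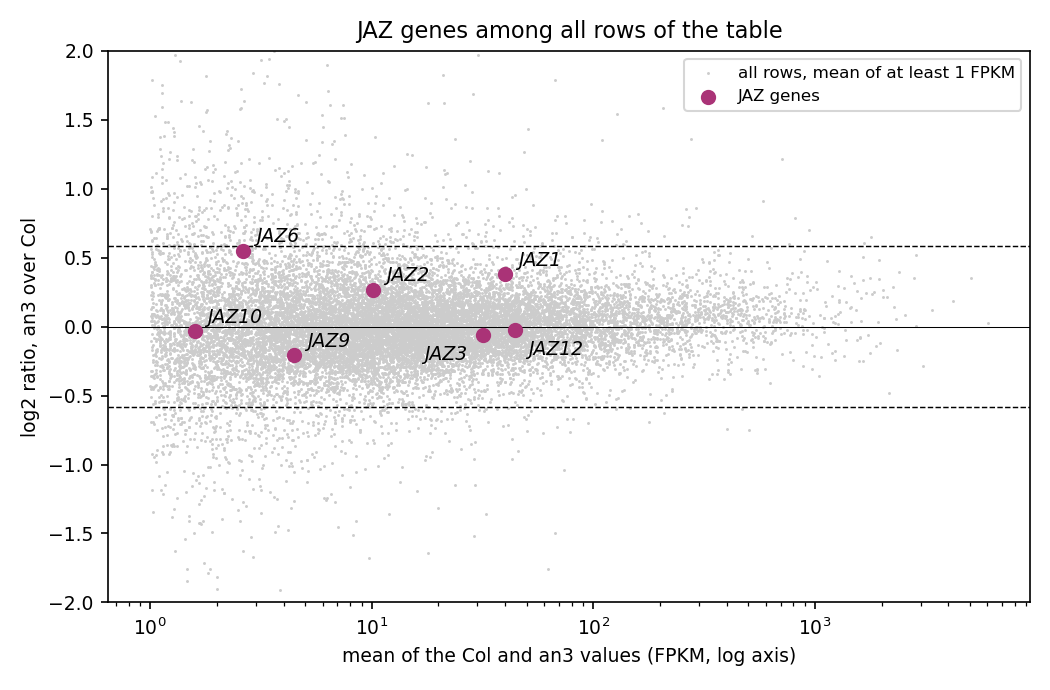
Log2 ratio of *an3* over Col (y axis, 0.1 FPKM added) against the mean of both values in FPKM (x axis, log scale) for the 7 JAZ genes whose mean reached 1 FPKM (purple) and all rows with that mean (grey). Dashed lines mark 1.5-fold, and 52 rows beyond a log2 ratio of 2 in either direction are not drawn. The JAZ genes lie between -0.21 (*JAZ9*) and 0.55 (*JAZ6*), inside both lines.

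Of the remaining JAZ genes, *JAZ4* had 6.81 FPKM in Col and 6.13 in *an3*, and *JAZ11* had 17.6 and 19.7 FPKM. AT3G22275, which has no symbol in the names table, had 0.167 and 0.0694 FPKM. Over the list of 9 further genes of the TIFY family, to which JAZ genes belong by a shared motif, 8 reached a mean of 1 FPKM and none of them differed by 1.5-fold, with log2 ratios from -0.39 to 0.23 and a median of -0.0047. The rows of *PPD2* and *ZIM* each name a neighbouring locus as well.

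*COI1*, the receptor gene, had 16.8 FPKM in Col and 16.0 in *an3*, a log2 ratio of -0.07. The list of COI1 and the other subunits of its ubiquitin ligase (*ASK1*, *ASK2*, *CUL1* and *RBX1*) held 5 genes, with log2 ratios from -0.07 to 0.28, and none of them was past 1.5-fold.

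The partners through which JAZ proteins repress were mostly lower in *an3* by small amounts. *NINJA*, the adaptor, had 30.2 FPKM in Col and 29.7 in *an3*. *TPL*, the TOPLESS co-repressor gene, had 40.9 and 35.7 FPKM, a log2 ratio of -0.19. Of 8 genes in this list, with the TOPLESS-related genes and 2 histone deacetylase genes, 7 were lower and 1 (*HDA6*) was higher, and none was past 1.5-fold. Among the 17229 rows that reached 1 FPKM, 49.4% were higher in *an3*. Each gene of the list lay between the 5th and 95th percentiles of rows of its level. These were -0.33 and 0.37 at 20 to 100 FPKM and, for *TPR3*, -0.70 and 0.77 at 1 to 5 FPKM. A shared direction of the list was not tested.

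*MYC2*, *MYC3* and *MYC4*, whose products JAZ proteins hold back, each had a lower value in *an3*. *MYC2*, the main activator of the pathway, had 31.2 FPKM in Col and 25.3 in *an3* (log2 ratio -0.30). *MYC3* had 20.7 and 16.6 FPKM (log2 ratio -0.32). *MYC4* had 11.3 and 9.21 FPKM (log2 ratio -0.29). The 5th percentile was -0.33 for rows with a mean of 20 to 100 FPKM, as *MYC2* had. It was -0.44 for rows with a mean of 5 to 20 FPKM, as *MYC3* and *MYC4* had. Each of these MYC genes thus lay inside the spread of rows of its level. The 6 genes of the list that reached a mean of 1 FPKM, with the repressor genes *JAM2* and *JAM3* and the mediator subunit gene *MED25* beside the MYC genes, had a median log2 ratio of -0.21, and none was past 1.5-fold.

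Among the genes of jasmonate synthesis, 10 of 15 reached a mean of 1 FPKM and 1 was past 1.5-fold, near the 6.95% of all rows. This was *AOC2*, an allene oxide cyclase gene, with 1.17 FPKM in Col and 2.67 in *an3* (log2 ratio 1.12). *AOC2* has close copies beside it, so reads may be shared, and the level is low. At a higher level, *AOC3* had 72.7 FPKM in Col and 100.4 in *an3* (log2 ratio 0.46). This was not past 1.5-fold but lay above the 95th percentile (0.37) of rows with a mean of 20 to 100 FPKM. *AOS* had 4.64 and 6.01 FPKM (log2 ratio 0.36), and the lowest log2 ratio of the list was -0.22 (*PXA1*). The median log2 ratio of the list was 0.09, with 5 genes higher and 5 lower.

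*JAR1*, which makes the active conjugate, had 47.6 FPKM in Col and 52.5 in *an3*. In its list, which also holds genes of jasmonate breakdown, 8 of 12 genes reached a mean of 1 FPKM. Of these, 2 were past 1.5-fold in opposite directions, beside 3.89% of all rows higher and 3.06% lower. *CYP94B1*, a hydroxylase gene of jasmonoyl-isoleucine, had 9.48 FPKM in Col and 5.03 in *an3* (log2 ratio -0.90). *CYP94C1*, which acts on the same compound in a further oxidation step, had 1.75 and 2.80 FPKM (log2 ratio 0.65). *CYP94B1* lay below the 5th percentile (-0.44) of rows with a mean of 5 to 20 FPKM. *CYP94C1* lay under the 95th percentile (0.77) of rows with a mean of 1 to 5 FPKM. The list had a median of -0.03.

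A further list held genes that jasmonate is known to induce, apart from the JAZ and synthesis genes, and most of them were near 0 in these root tips. Of its 13 genes, 11 were under 1 FPKM in both genotypes and 5 were listed at 0 in both, among them *PDF1.2A*. Of all 33201 rows, 10640 were at 0 in both and 17229 reached a mean of 1 FPKM, so values of 0 were common. The 2 that reached a mean of 1 FPKM were *VSP1*, with 1.47 FPKM in Col and 1.68 in *an3*, and *JAV1*, with 3.36 and 4.27 FPKM, and neither was past 1.5-fold.

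**Figure D3:**
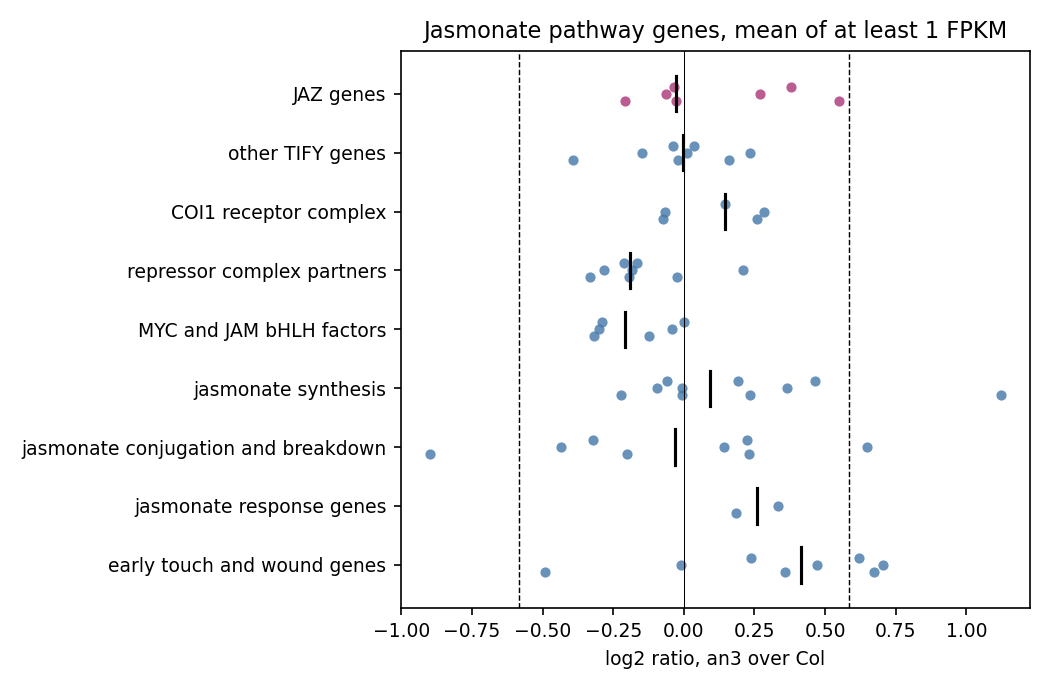
Log2 ratio of *an3* over Col (x axis, 0.1 FPKM added) for each gene whose mean reached 1 FPKM (points), by list, with the list's median as a black bar and 1.5-fold as dashed lines. JAZ genes (purple) lie on both sides of 0 with a median of -0.03, the MYC and JAM list has a median of -0.21, and the early touch and wound list has a median of 0.41.

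Several JAZ genes are known to rise quickly after wounding or touch, so other genes of that response are given beside them. Of 9 early touch and wound genes, 8 reached a mean of 1 FPKM, 3 were past 1.5-fold higher in *an3* and none was past it lower, beside 3.89% and 3.06% of all rows, with a median log2 ratio of 0.41. *ZAT12* had 28.8 FPKM in Col and 47.0 in *an3*, *ZAT10* had 4.71 and 7.58 FPKM, and *WRKY33* had 34.7 and 53.4 FPKM. The TCH touch genes, named after their values were seen, did not share a direction. *TCH3* had 53.7 and 38.1 FPKM, *TCH2* had 18.9 and 18.8 FPKM, and *TCH4* had 3.47 and 4.47 FPKM. The log2 ratio of *TCH3*, -0.49, was below the 5th percentile (-0.33) of rows with a mean of 20 to 100 FPKM. The log2 ratio of *TCH4*, 0.36, was under the 95th percentile (0.77) of rows with a mean of 1 to 5 FPKM. The part of a wound or touch response in the value of *JAZ1* was not tested.

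The values of clock genes also differed between the 2 sets of tips, with no test behind them. Of 6 listed, *ELF4* and *PRR7* were past 1.5-fold higher in *an3*, beside 3.89% of all rows. *CCA1*, *LHY* and *PRR9* were past it lower, beside 3.06% of all rows, *CCA1* going from 4.89 FPKM in Col to 0.847 FPKM in *an3*. Among rows with a mean of 1 to 5 FPKM, 15.2% were past 1.5-fold in either direction. *PRR7*, with a log2 ratio of 0.68, lay under the 95th percentile (0.77) of these rows. *CCA1*, *LHY* and *PRR9* lay below their 5th percentile (-0.70). *TOC1*, also listed, had 17.6 FPKM in Col and 21.2 in *an3* (log2 ratio 0.27) and was not past 1.5-fold. The sources used here give no time of collection, and the part of the time of day in the JAZ values was not tested.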

How the data were processed

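RNA-seq of 3 *an3* and 3 Col root tip samples was examined. Through TuxNet, the authors ran ea-utils fastq-mcf for trimming, HISAT2 for alignment and Cufflinks for quantification (versions, genome build and annotation: not given in the sources used here). Cufflinks FPKM was deposited by the authors as 1 value for each genotype. The deposited table also holds the authors' own fold change and q-value, which were not used. Without values per sample, the planned test could not be run.

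Log2 ratios used a pseudocount of 0.1 FPKM, which understates the change of low genes. A mean of at least 1 FPKM and a ratio of 1.5-fold were the limits. Python 3.11.15, pandas 2.3.3, numpy 2.4.6 and matplotlib 3.10.9 were used.

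Members and lists were chosen with earlier results of these data known. Named were all members, *AN3*, the other JAZ genes, *COI1*, *NINJA*, *TPL*, *MYC2*, *MYC3*, *MYC4*, *JAR1* and, per list, up to 4 genes past 1.5-fold. Other genes named were chosen after their values were seen. Symbols, gene starts and upstream sequence are from RefSeq TAIR10.1, in which all 10 members matched. Protein sequences were not analysed here.

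Alternatives were other pseudocounts, folds and minimum levels, a rescaling to a median ratio of 1, and leaving out rows of several loci.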

Additional observations from a re-analysis of the deposited data

How the results depend on the processing

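The log2 ratios of the 8 JAZ genes listed above 0 in both genotypes were recomputed with other settings, giving 32 values. Their sign could not change with a pseudocount of 1 or 0.01 FPKM, since the same amount is added to both genotypes. Leaving out rows of several loci could not change them either, since each member has a row of its own. Setting the median ratio to 1 kept each sign but is a small shift, which moved *JAZ1* from 0.379 to 0.382. The median of the JAZ genes ran from -0.03 to 0.12, the latter over the JAZ genes whose mean reached 5 FPKM. Without a minimum level, genes listed at 0 in either genotype stayed out. The count of JAZ genes past the limit was 0 under each alternative except the lower limit (a log2 ratio of 0.32), where it was 2. At a fold of 2, with a minimum of 5 FPKM or without rows of several loci, this count could only stay at 0. The lists around them depended more on the limit. Given here are the counts that changed by more than 1.5 times or to or from 0, and smaller changes are left out. At that lower limit the counts were 6 of 8 for the touch and wound genes, 4 of 8 for conjugation and breakdown and 3 of 10 for synthesis. They were 1 of 2 for the response genes, 1 of 8 for the other TIFY genes and 1 of 8 for the repressor partners. Of all rows, 11.4% were higher and 10.2% lower at this limit. For the other alternatives no share of all rows was computed, so their counts cannot be weighed against one. At a fold of 2 the counts were 3 of 6 for the clock genes, 0 of 8 for the touch and wound genes and 0 of 8 for conjugation and breakdown. Without a minimum level they were 3 for the response genes, 2 for synthesis, 1 for the other TIFY genes and 1 for the MYC and JAM factors. With a minimum of 5 FPKM they were 1 for the clock genes, 1 for conjugation and breakdown and 0 for synthesis. With a pseudocount of 1 FPKM the count for conjugation and breakdown was 1. The value of a gene was taken as moved when its ratio shifted 1.5-fold or more, in place of an unknown replicate spread. No paired analysis was possible because the table gives 1 value per genotype, and leaving out each replicate was not run for the same reason. The depth per sample is unknown, so values under 1 FPKM, those of *JAZ5*, *JAZ7* and *JAZ8* among them, carry no stated precision.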
